A study of Mus musculus with 2 samples.

Results

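Heat shock and chaperonin genes encode the proteins that fold, hold and sort other proteins in the cytosol, the endoplasmic reticulum and the mitochondria. The genes were taken from a fixed list of gene symbols, chosen by their function, and each was looked up by its column in the deposited tables. All 39 genes of the list were found among 38458 gene columns, 29 acting in the cytosol or nucleus, 5 in the endoplasmic reticulum and 5 in mitochondria. Each had at least 1 unique molecular identifier (UMI, the tag that marks 1 captured RNA molecule) in each library, and 37 had at least 50 UMIs over both libraries. The levels of these 37 were compared, and the other two, Hspa1a and Hspa1b, are given by their counts.

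The cells were mouse embryonic stem cells (mESCs) that carry no Terc, which encodes the RNA subunit of telomerase, and that survive long culture by alternative lengthening of telomeres (ALT). Droplet single-cell RNA libraries were made from the line at PD100, when long telomeres remain, and at PD800, when ALT is stably established. PD is the count of population doublings, which the sample labels call passages. Both libraries came from DKO741, a single Terc-/- clone derived from E14 mESCs. The first allele was targeted, its neo marker was removed with Cre, and the second allele was then targeted with the same construct. Cells of both time points were grown feeder-free for the experiment after maintenance on embryonic fibroblasts. The comparison shows how the chaperone transcripts of this line differed before and after the switch to ALT. There was 1 library per time point, so it compares 2 libraries, no p-value can be given, and the intervals below, at 95%, hold counting error alone. Culture time, clonal history and library preparation cannot be told apart here.

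HSP70 proteins bind short hydrophobic stretches of unfolded clients, J-domain proteins (HSP40) deliver the clients and start ATP hydrolysis, and exchange factors such as HSP110 proteins release the nucleotide. HSP90 takes partly folded clients such as kinases and steroid receptors, with cochaperones that set the order of the cycle. The ring-shaped chaperonins, CCT in the cytosol and HSP60 with its lid HSP10 in mitochondria, fold proteins inside a closed cavity, and actin and tubulin are the best known CCT clients. In the endoplasmic reticulum, BiP, GRP94 and the lectins calreticulin and calnexin do the same work for secreted and membrane proteins. Heat shock factor 1, encoded by Hsf1, drives the inducible cytosolic genes through heat shock elements, and the unfolded protein response drives the reticulum genes. Pluripotent cells are known for high chaperone levels.

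Cells with at least 1000 UMIs and at most 20% of UMIs from mitochondrial DNA were kept, 814 of 1291 barcodes in PD100 and 900 of 1666 in PD800. They held 1826233 and 2580963 UMIs, with a median of 2151 and 2702 UMIs per cell, and the median mitochondrially encoded share was 1.23% in PD100 and 4.42% in PD800. Terc had 0 UMIs in each library, which allows up to 1.64 CPM (UMIs normalised to a total of 1000000) in PD100 and 1.16 in PD800, and capture through poly(A) tails would also miss its RNA. Of 13 markers of embryonic stem cells, all were detected in each library, with summed levels of 12447 and 12931 CPM, while 10 fibroblast markers summed to 33.4 and 15.9 CPM, with Col1a1 and Lum at 0 in PD100. All 17 markers of extraembryonic endoderm were lower in PD800, from 1171 to 162 CPM in sum, with Gata6 and Srgn at 0. Of 7 trophoblast markers 5 were lower, from 423 to 46.5 CPM in sum, with Cdx2 at 0 in PD100, and 7 markers of 2-cell-like cells went from 42.2 to 0.387 CPM, with 6 at 0 in PD800. The part of these cells in the results was not tested. Between the filtered libraries 8 barcode names were shared. Over the 6984 genes with at least 50 UMIs, the median log2 ratio of PD800 over PD100 was -0.34. Values called relative are measured from that median. Ratios of single genes are plain unless called relative, so a plain ratio between -0.34 and 0 lies above the median.

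Chaperone transcripts took a smaller share of the RNA at PD800 than at PD100. The 39 genes together held 46335 UMIs, or 2.54% of all UMIs (exact binomial interval 2.51 to 2.56), in PD100 and 55087, or 2.13% (2.12 to 2.15), in PD800. Of UMIs from nuclear genes alone the shares were 2.57% and 2.24%. The cytosolic genes summed to 21095 CPM in PD100 and 18071 in PD800, the reticulum genes to 1392 and 1144, and the mitochondrial genes to 2884 and 2128. The summed level was thus lower at PD800 in each of the 3 compartments. Most tested genes were lower too, with a median log2 ratio of -0.34. The total share and the cytosolic and reticulum sums fell by less than that median, and the mitochondrial sum by more.

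The 37 genes did not move as a block. Their median log2 ratio was -0.46, with a range from -1.46 for Dnajb1 to 1.19 for Cct6a, and relative to all tested genes the median was -0.11. By compartment the medians were -0.57 in the cytosol, -0.30 in the reticulum and -0.46 in mitochondria, which are -0.23, 0.04 and -0.11 relative to all tested genes. The counting interval lay below 0 for 24 of the 37 and above 0 for 8, beside 45% and 19.2% of all tested genes. At least 1.5-fold lower in PD800 were 17 of 37, beside 36.6% of tested genes, and at least 1.5-fold higher were 2, Cct6a and Hspb1, beside 15.2%. At 2-fold the counts were 5 lower, namely Dnajb1, Stip1, Hspa4, Trap1 and Dnajc7, beside 16.9%, and 1 higher, Cct6a, beside 9.22%. Measured relative to all tested genes, 7 were 1.5-fold higher and 7 were 1.5-fold lower, beside 24.5% and 20% of tested genes.

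**Figure D1:**
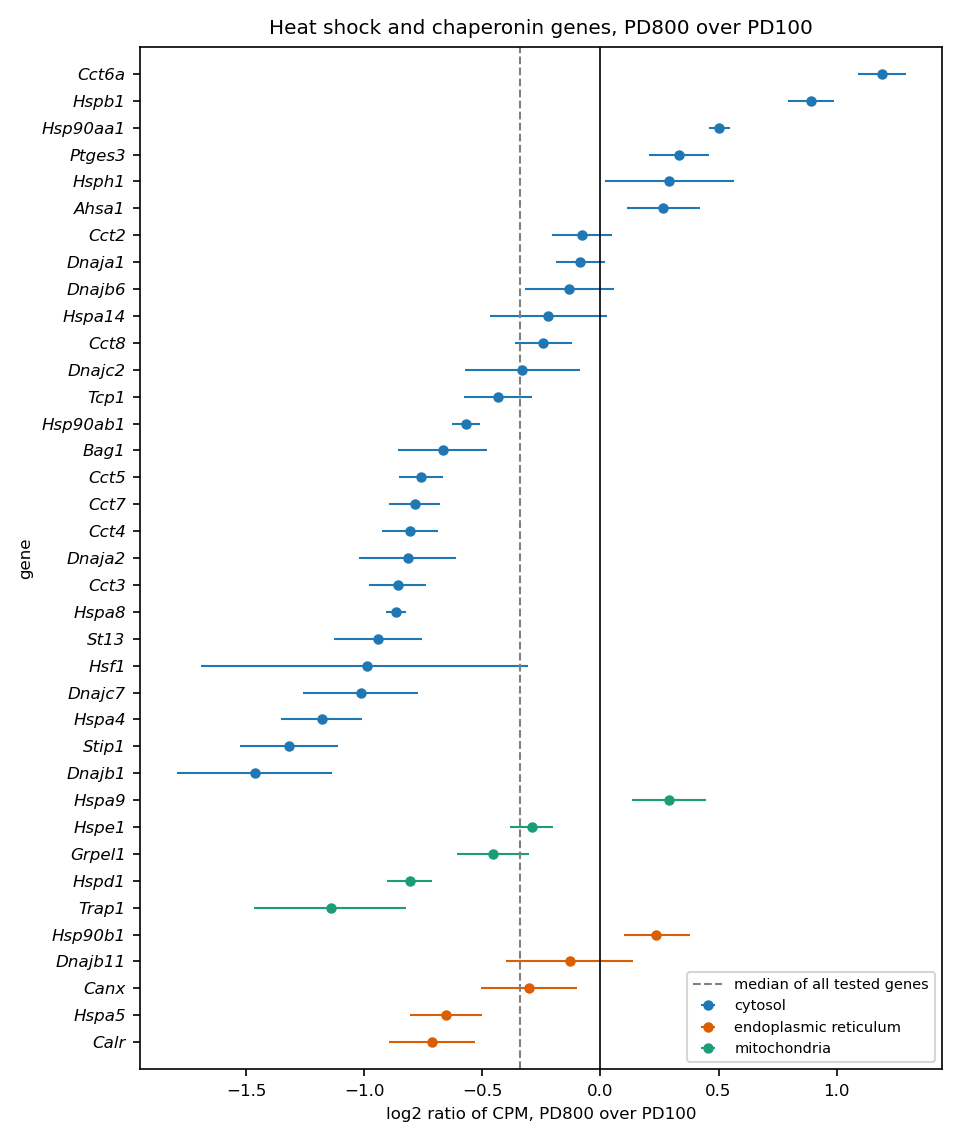
Log2 ratio of CPM in PD800 over PD100 for the 37 genes with at least 50 UMIs, by compartment, with points for the ratio and lines for the 95% counting interval. Cct6a at 1.19 and Hspb1 at 0.89 stand at the top, Dnajb1 at -1.46 at the bottom, and the dashed line marks the median of all tested genes at -0.34.

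**Figure D2:**
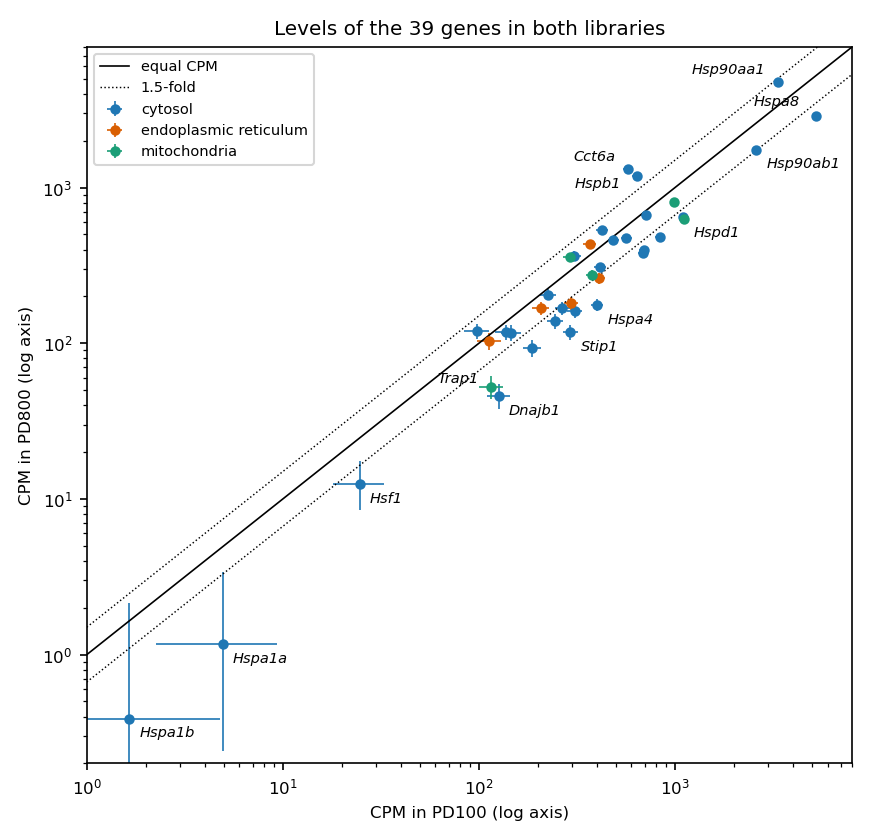
CPM of the 39 genes in PD100 (horizontal log axis) and PD800 (vertical log axis), by compartment, with lines for the 95% Poisson interval. The solid line marks equal levels and the dotted lines a 1.5-fold difference, with Hspa8 the highest gene in PD100 and Hsp90aa1 the highest in PD800.

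The HSP90 paralogs diverged. Hsp90aa1, the stress-inducible cytosolic form (chr12:110690605-110702728, minus strand, GRCm38), was counted at 6097 UMIs or 3339 CPM in PD100 and 12218 UMIs or 4734 CPM in PD800, a log2 ratio of 0.50 (0.46 to 0.55). Hsp90ab1, the constitutive cytosolic form (chr17:45567775-45573271, minus strand), was counted at 4754 and 4530 UMIs, or 2603 and 1755 CPM, a log2 ratio of -0.57 (-0.63 to -0.51). The paralogs therefore moved apart, and neither interval reached 0. Hsp90aa1 held 56.2% (55.2 to 57.1) of the cytosolic HSP90 UMIs in PD100 and 73.0% (72.3 to 73.6) in PD800. These are shares of 3'-end tags and not of protein. Hsp90b1, which encodes GRP94 of the reticulum, was slightly higher at PD800, with 670 and 1116 UMIs and a log2 ratio of 0.24 (0.10 to 0.38). Trap1, the mitochondrial HSP90, had 211 and 135 UMIs and a ratio of -1.14 (-1.47 to -0.82), the lowest of the 4.

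Hspa8, the constitutive HSP70 (chr9:40800984-40810087, plus strand), was the most abundant of the 39 genes in PD100. It had 9595 UMIs or 5254 CPM (Poisson interval 5149 to 5360) there and 7439 UMIs or 2882 CPM (2817 to 2949) in PD800. Its log2 ratio was -0.87 (-0.91 to -0.82), and in PD800 it ranked below Hsp90aa1. Hspa4, an HSP110 exchange factor, was lower as well, from 400 CPM on 730 UMIs to 176 CPM on 455 UMIs, a ratio of -1.18 (-1.35 to -1.01). Hsph1, the other HSP110 gene, went the other way, with 178 and 308 UMIs and a ratio of 0.29 (0.02 to 0.57). Hspa14, an HSP70 bound to ribosomes, had 250 and 303 UMIs and a ratio of -0.22 whose interval (-0.47 to 0.03) included 0.

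The stress-inducible HSP70 genes were almost silent. Hspa1a (chr17:34969190-34972156, minus strand) had 9 UMIs in PD100 and 3 in PD800, and its near-identical neighbour Hspa1b (chr17:34956436-34959238, minus strand) had 3 and 1. Reads of such copies can be split between them by the counting, so they were also summed, to 12 UMIs in 10 cells of PD100 and 4 UMIs in 3 cells of PD800. The ratio of the sums was -2.08 with an interval from -4.17 to -0.36 on the log2 scale. No cell held more than 2 of these UMIs, and none of the cells with one was in the endoderm-like cluster described below. Of the UMIs of Hspa8, Hspa1a and Hspa1b together in PD100, the inducible genes held 0.0937% and 0.0312%. Immediate early genes, which respond to handling and stress of cells, moved in the same direction: 11 of 13 tested were lower in PD800, from 1177 to 434 CPM in sum, with Junb at 427 and 62 UMIs. The interval lay below 0 for 11 of the 13, beside 45% of all tested genes. Their part in the result was not tested.

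All 7 J-domain genes of the list had a ratio below 0, and 4 had an interval below 0, beside 66.6% and 45% of all tested genes. Relative to the median of all tested genes, 4 of the 7 were above 0 and 3 below. Dnajb1, the cochaperone that pairs with HSP70 under stress (chr8:83608193-83612653, plus strand), had the lowest ratio of the 37 genes, -1.46 (-1.79 to -1.14), with 230 UMIs or 126 CPM in PD100 and 118 UMIs or 45.7 CPM in PD800. Dnajc7, which links HSP70 and HSP90, followed at -1.02 with 342 and 239 UMIs, and Dnaja2, a general HSP70 partner, at -0.82 with 445 and 357. Dnajc2, a ribosome-associated J-protein, stood at -0.33 (-0.57 to -0.09). Dnaja1 had 1300 and 1732 UMIs, or 712 and 671 CPM, and Dnajb6 had 411 and 530, or 225 and 205 CPM. The ratios of Dnaja1 (-0.09), Dnajb6 (-0.13) and the reticulum J-protein Dnajb11 (-0.13) had intervals that included 0.

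The promoters give a view of the sequences through which Hsf1 acts. RefSeq promoter windows on GRCm38.p6, from 250 bases before to 50 bases after each gene start, were matched for 31 of the 39 genes. A heat shock element of 3 units was spelled as GAA, TTC and GAA or as TTC, GAA and TTC, with any 2 bases between units. Searched on both strands, it was found in 4 of the 31, Dnajb6, Hspd1, Hspe1 and Hsph1. The share was 0.662% of 27025 genes, or 0.603% of 32851 promoters of the same length. Hspd1 and Hspe1 share 1 site in their divergent promoter, read from opposite strands. The shorter form of 2 such units lies inside the longer one and was found in 11 of the 31, beside 15.1% of promoters. The window upstream of Dnajb6 (chr5:29735832-29735884, plus strand) and the stretch around the start of Hspe1 (chr1:55088028-55088147, plus strand), which lies inside the annotated bounds of the divergent gene Hspd1, are shown because they hold the 3-unit element, in capitals.
Dnajb6: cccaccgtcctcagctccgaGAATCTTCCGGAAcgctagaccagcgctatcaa
Hspe1: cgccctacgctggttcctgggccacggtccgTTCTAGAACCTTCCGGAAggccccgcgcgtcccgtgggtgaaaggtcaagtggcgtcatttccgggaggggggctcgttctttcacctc
The ratios of the 4 genes were -0.13 for Dnajb6, -0.81 for Hspd1 and -0.29 for Hspe1, which share 1 site, and 0.29 for Hsph1. Carrying these letters thus did not go with 1 direction. A match of letters is a description and not a bound site.

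Hsf1 itself (chr15:76477422-76501913, plus strand) was sparse, with 45 UMIs or 24.6 CPM in PD100 and 32 UMIs or 12.4 CPM in PD800. Its ratio was -0.99, and with so few counts its interval ran from -1.69 to -0.30.

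Among the 8 subunits of the CCT ring, which are assembled in equal numbers, 7 had a ratio below 0, beside 66.6% of tested genes. The other, Cct6a, stood apart. Relative to the median of all tested genes 5 of the 8 were below 0, and Cct2 (0.26) and Cct8 (0.10) were above it, as was Cct6a. Cct3 (-0.86), Cct4 (-0.81), Cct7 (-0.79) and Cct5 (-0.76) were lower in PD800 by a similar amount, Tcp1 (-0.43) and Cct8 (-0.24) by less, and Cct2 (-0.08) had an interval from -0.20 to 0.05. The median of these 7 was -0.76. Cct5, the most abundant subunit in PD100, had 2002 and 1671 UMIs, or 1096 and 647 CPM. Cct6a (chr5:129786998-129846371, plus strand) instead had 1049 UMIs or 574 CPM (540 to 610) in PD100 and 3384 UMIs or 1311 CPM (1267 to 1356) in PD800. Its ratio of 1.19 (1.09 to 1.29) was the highest of the 37 genes. Cct6a held 10.7% (10.1 to 11.4) of CCT UMIs in PD100 and 29.4% (28.5 to 30.2) in PD800, while the share of Cct5 went from 20.5% to 14.5%.

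**Figure D3:**
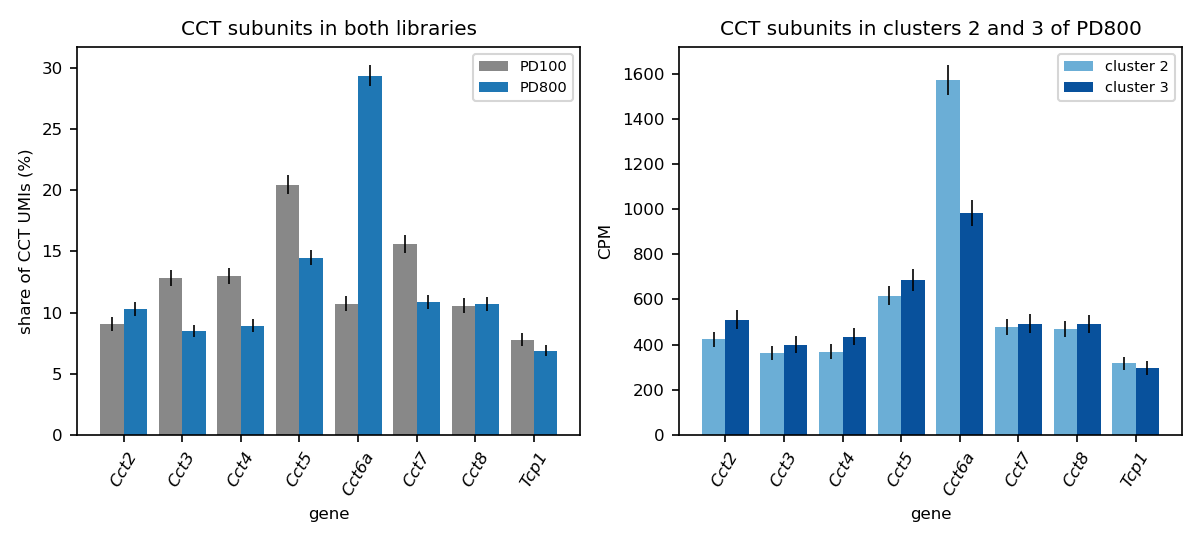
Left, share of each subunit in the CCT UMIs of PD100 and PD800, in percent, with 95% binomial intervals. Right, CPM of the same subunits in clusters 2 and 3 of PD800, with 95% Poisson intervals, in which Cct6a is 1571 in cluster 2 and 982 in cluster 3. Of the other 7 subunits, Cct2, Cct4 and Cct5 were higher in cluster 3 with intervals above 0.

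The annotation (GENCODE M21, GRCm38) holds a short Cct6a transcript with a repeated end. Cct6a-203, a transcript of 460 bases and 3 exons classed as a retained intron, ends in a stretch that recurs in many other genes. Of its 20-base words, 132 occur in at least 20 other tested genes, and the most common word occurs in 383. The spliced transcripts Cct6a-201 and Cct6a-202 hold 3 and 0 such words, and Cct6a-205, another retained intron of 701 bases, holds 8, 1 of them found in 516 genes. The stretch (chr5:129790861-129791064, plus strand) lies after the fifth exon of both spliced transcripts and overlaps no exon of either. It is shown because UMIs from such RNA would count towards Cct6a, with capitals for the words it shares with Dnajb14, a J-domain gene outside the list.
Cct6a-203: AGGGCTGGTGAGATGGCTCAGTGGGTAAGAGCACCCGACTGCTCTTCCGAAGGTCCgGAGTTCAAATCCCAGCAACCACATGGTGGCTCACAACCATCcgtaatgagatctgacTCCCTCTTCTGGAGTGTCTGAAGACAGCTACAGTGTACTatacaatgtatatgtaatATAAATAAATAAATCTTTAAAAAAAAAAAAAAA
There were 456 other tested genes with at least 10 of these words in the sense of transcription. Their relative median was 1.55 (1.24 to 1.84) on the log2 scale, and Cct6a itself had 1.53. Genes were tested from 50 UMIs summed over both libraries. A sparse gene could thus pass through PD800 alone, which can raise such a median. The 282 genes with the words only in antisense had a median of -0.08, and the 6049 genes with neither had -0.04. Searched in the same way for repeated words of their own, Cct3, Tcp1 and Cct7 also have transcripts that hold them, up to 101 in Cct3-206, 38 in Tcp1-202 and 16 in Cct7-205, and Cct2, Cct4, Cct5 and Cct8 have none. The genes with at least 10 such words of Cct3, 422 in number, had a relative median of -0.0027, the 408 of Tcp1 0.032 and the 83 of Cct7 0.13, against 1.55 for the 461 of all Cct6a transcripts together. Among the listed chaperones only Cct6a, from which the words were taken, held at least 10 of them in sense, while Dnaja1 held 3, and St13 and Cct3 held 77 and 7 in antisense. Dnajb14 shares 93 of the words in sense and went from 2104 UMIs in PD100 to 22383 in PD800, a log2 ratio of 2.91 (2.85 to 2.98). Which part of Cct6a the counted tags came from cannot be read from gene counts, and the part of the repeated stretch in the result was not tested.

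Of the 6 cochaperones of the list, Ptges3 and Ahsa1 had intervals above 0, and Stip1, St13, Bag1 and the mitochondrial Grpel1 below 0. Ptges3 (p23) and Ahsa1 (AHA1), which act on the ATP-bound and ATPase steps of HSP90, were higher in PD800. There were 776 and 1380 UMIs for Ptges3, a ratio of 0.33 (0.20 to 0.46), and 555 and 943 for Ahsa1, a ratio of 0.27 (0.11 to 0.42). Stip1 (HOP), the adaptor that passes clients from HSP70 to HSP90, was lower, with 535 and 303 UMIs or 293 and 117 CPM, a ratio of -1.32 (-1.53 to -1.11). St13 (HIP), which stabilises HSP70 with bound client, stood at -0.94 with 562 and 413 UMIs, and the exchange factor Bag1 at -0.67 with 486 and 432.

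Hspb1, the small heat shock protein HSP27 that holds unfolding clients without ATP (chr5:135887919-135889563, plus strand), was one of the 2 genes at least 1.5-fold higher. It had 1175 UMIs or 643 CPM (607 to 681) in PD100 and 3082 UMIs or 1194 CPM (1152 to 1237) in PD800, a ratio of 0.89 (0.79 to 0.99). It shares none of the repeated words of Cct6a. Of 10 other small heat shock genes only 3 had at least 50 UMIs, of which Cryab had 143 and 19 UMIs and a ratio of -3.41, and 109 of the Cryab UMIs of PD100 came from the 38 endoderm-like cells. Without those cells its ratio was -1.41 (-2.30 to -0.56).

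Of the 3 compartments, the reticulum had the median closest to that of all tested genes, at 0.04 relative to it. Its single genes ranged from -0.37 to 0.58 on that scale. After thinning to 1000 UMIs per cell the mitochondrial median was closer, at -0.01 against 0.11. Hspa5, which encodes BiP (chr2:34771970-34777547, plus strand), had 750 UMIs or 411 CPM and 674 UMIs or 261 CPM, a ratio of -0.65 (-0.81 to -0.50). Calr, calreticulin (chr8:84841850-84846934, minus strand), had 540 and 465 UMIs and a ratio of -0.71 (-0.90 to -0.53), and Canx, calnexin (chr11:50293961-50325673, minus strand), had 377 and 432 and a ratio of -0.30 (-0.51 to -0.10). Hsp90b1 was the one reticulum gene above 0. An ER stress element was spelled as CCAAT, any 9 bases and CCACG on either strand. It was found in the promoter windows of Hspa5, Hsp90b1, Calr and Canx, 4 of the 31 matched genes, beside 0.137% of all genes and 0.119% of all promoters. It contains the shorter motif CCAAT, found in 19 of 31, beside 41.1% of genes and 37.4% of promoters. The 4 promoters are shown with the element in capitals, read from the gene's strand. Of the 4 genes, 3, Canx excepted, were higher in a group of PD100 cells described next. Dnajb11, the listed reticulum gene without the element, was higher in that group too. Hspa5 (chr2:34772005-34772063, plus strand) and Canx (chr11:50325780-50325838, minus strand) hold it in the forward direction, Calr (chr8:84847055-84847113, minus strand) in reverse, and Hsp90b1 (chr10:86705513-86705676, minus strand) in each direction.
Hspa5: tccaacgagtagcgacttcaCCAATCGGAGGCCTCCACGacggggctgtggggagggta
Hsp90b1: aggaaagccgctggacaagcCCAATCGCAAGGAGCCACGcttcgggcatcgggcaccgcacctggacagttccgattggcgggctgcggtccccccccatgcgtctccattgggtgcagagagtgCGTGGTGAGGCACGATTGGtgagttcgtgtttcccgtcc
Calr: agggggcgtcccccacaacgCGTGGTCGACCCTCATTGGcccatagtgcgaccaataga
Canx: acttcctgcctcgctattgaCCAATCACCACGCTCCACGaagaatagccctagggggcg

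Cells were clustered on all variable genes except the 39, which gave 5 clusters. Cluster 5 held 38 cells, all of PD100, and expressed 16 of 17 markers of extraembryonic endoderm, a secretory cell type that builds a basement membrane. It is called endoderm-like here. Between these cells and the other 776 of PD100 the reticulum chaperones were far higher: Calr was at 1198 CPM (980 to 1451) against 250 (227 to 275), a log2 ratio of 2.26, Hspa5 at 1244 (1022 to 1501) against 369, a ratio of 1.75, Dnajb11 at 445 against 96.0, a ratio of 2.21, and Hsp90b1 at 1016 against 334, a ratio of 1.60. Canx was not, at 183 against 208 CPM and a ratio of -0.19. The counting interval lay above 0 for 4 of 5 reticulum genes, for 0 of 26 in the cytosol and for 1 of 5 in mitochondria, beside 12.7% of the 4774 genes tested in this comparison, and it lay below 0 for 10 in the cytosol and 4 in mitochondria, beside 13.3%. Trap1 had 0 UMIs in the endoderm-like cells against 211 UMIs or 121 CPM in the others, a log2 ratio of at most -1.83 with 3 counts as the limit that a count of 0 allows. Of 22 other reticulum folding genes all were higher in the endoderm-like cells, 21 with an interval above 0, with a median ratio of 1.91. The collagen chaperone Serpinh1 and the BiP cochaperone Dnajc3 were among them, at 6.16 and 2.83. Those genes, unlike the 39, took part in the clustering. Without the endoderm-like cells the PD800 over PD100 ratio was -0.47 for Calr and -0.50 for Hspa5, and 0.10 for Dnajb11.

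**Figure D4:**
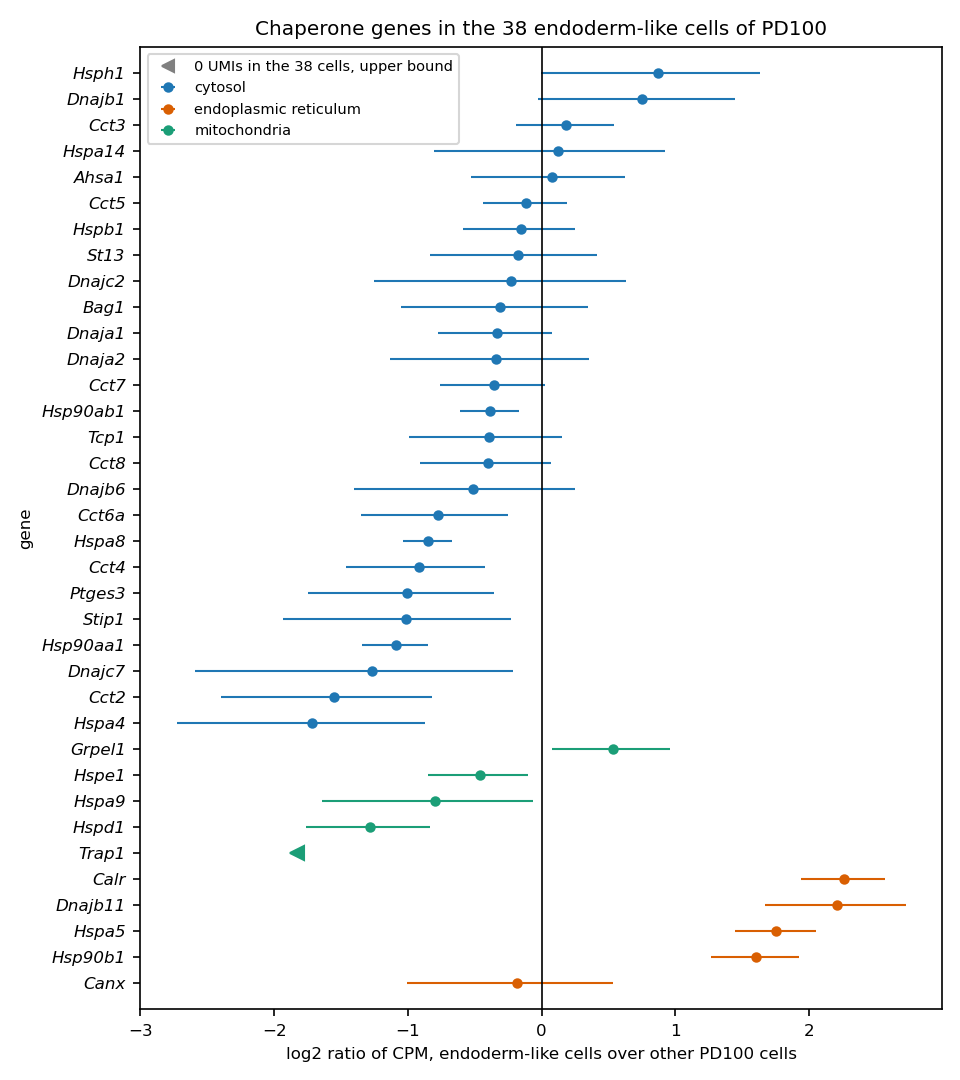
Log2 ratio of CPM in the 38 endoderm-like cells over the other 776 cells of PD100, for the 36 listed genes with at least 50 UMIs in this comparison, with 95% counting intervals. Calr, Dnajb11, Hspa5 and Hsp90b1 lie between 1.60 and 2.26, and most cytosolic genes lie at or below 0.

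In mitochondria the chaperonin pair moved unequally. Hspd1 (HSP60, chr1:55077835-55088243, minus strand) had 2019 UMIs or 1106 CPM and 1630 UMIs or 632 CPM, a ratio of -0.81 (-0.90 to -0.71), while its lid Hspe1 (HSP10, chr1:55088132-55091307, plus strand), whose start lies in the stretch shown above, had 1814 and 2096 UMIs, or 993 and 812 CPM, a ratio of -0.29 (-0.38 to -0.20). Hspd1 thus made up 52.7% (51.1 to 54.3) of their joint UMIs in PD100 and 43.7% (42.1 to 45.4) in PD800. Hspa9, the mitochondrial HSP70 that pulls in imported proteins, was higher in PD800 with 532 and 920 UMIs and a ratio of 0.29 (0.14 to 0.45), and its exchange factor Grpel1 was lower with 691 and 712 UMIs and a ratio of -0.46 (-0.61 to -0.30). The share of UMIs from mitochondrial DNA was higher in PD800 as given above, and its part in these values was not tested.

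The genes that differed most in level also differed in the share of cells in which they were found. At 1 depth this share depends on the level, so it is not a separate result. Each cell was thinned to 1000 UMIs to compare shares of cells at 1 depth. Cct6a was then detected in 38.9% (35.6 to 42.4) of PD100 cells and 66.6% (63.4 to 69.6) of PD800 cells, and Hspb1 in 40.9% and 64.0%. Without thinning these shares were 60.6% and 89.7% for Cct6a and 60.1% and 87.1% for Hspb1. Hsp90aa1 was found in 87.5% and 96.7% of thinned cells and Hspa8 in 96.9% and 90.8%. Dnajb1 was found in 10.4% (8.43 to 12.8) and 5.11% (3.77 to 6.76), and Stip1 in 23.3% and 10.8%. Over the 37 genes the median share was 24.7% in PD100 and 25.4% in PD800. A thinned cell held a median of 24 chaperone UMIs per 1000 in PD100 (quartiles 20 and 29, range 6 to 53) and 21 in PD800 (17 and 25, range 6 to 44), so the distributions overlapped widely.

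Counts of the listed genes varied less from cell to cell in PD800, relative to their mean. Over the 33 genes with a mean of at least 0.1 UMIs per thinned cell in each library, the median ratio of variance to mean, which is about 1 for pure counting noise, was 1.35 in PD100 and 1.23 in PD800, and it was higher in PD100 for 28 of the 33. Hsp90aa1 was the most variable in each library, at 2.35 and 1.86. PD100 also held the endoderm-like cells, and their part in the spread was not tested. The ratio was taken for the listed genes alone, so a difference between the whole libraries cannot be told apart from one in these genes.

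No cluster held cells of both libraries. Clusters 2 and 3 made up PD800, with 477 and 423 cells that each expressed 12 of 13 stem cell markers, and clusters 1 and 4 held 535 and 241 PD100 cells with 10 of 13 each. Cluster 4 was led by H19, Krt7 and Tagln and is given no name. Between clusters 3 and 2, the 36 listed genes tested had a median log2 ratio of 0.14, against 0.10 over all 5081 genes tested there. Of the 36, 14 had an interval above 0, beside 14.6%, and 1, Cct6a, below 0, beside 7.38%. It was at 982 CPM (925 to 1041) in cluster 3 and 1571 (1507 to 1637) in cluster 2, a ratio of -0.68 (-0.78 to -0.57). The 416 genes that share its repeated words in sense had a median of -0.51 in the same comparison, and the 4308 genes without them 0.12. Within PD100, Cct6a was lower in cluster 4 than in cluster 1, at 425 and 660 CPM, a ratio of -0.63 (-0.85 to -0.42). The median of 282 genes that share the words in sense was -0.25, against -0.02 for those without them. In each library the genes that share the words, unlike the listed genes, could take part in the clustering. Their difference between clusters may thus be partly built in. Hspb1 was higher in cluster 4, with 445 UMIs against 679 in cluster 1 and a ratio of 0.53 (0.35 to 0.70), and it did not differ between the PD800 clusters beyond counting error, at 1204 and 1186 CPM.

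The ratios of the listed genes tended to go with those of their chromosomal neighbours. The correlation below was taken for these genes alone, so it is not shown to be particular to them. Other tested genes differed by chromosome as well, with relative medians of 0.49 on chromosome 3 and -0.53 on chromosome 8. For each of the 37 genes, the median ratio of the other tested genes within 5 Mb was taken relative to all tested genes. Across the 37, this neighbour median and the gene's own relative ratio had a Pearson correlation of 0.60 and a Spearman correlation of 0.60, a description across genes that share 2 libraries and, for some, the same neighbours. Around Hsp90aa1 on chromosome 12 the neighbour median was 0.82 over 39 genes, as large as the 0.85 of Hsp90aa1 itself. Around Dnajb1 on chromosome 8 it was -0.66 over 54 genes, with -1.12 for Dnajb1, and the 391 other tested genes of chromosome 8 had a median of -0.53. Calr and Dnaja2 lie on the same chromosome, with neighbour medians of -0.70 each. Hspb1, at 1.23, lay above its 68 neighbours, whose median was 0.56. Cct6a and Hspa8 did not follow their neighbours. Cct6a stood at 1.53 above a median of -0.16 over 25 neighbours, 1 of which was as high, and Hspa8 at -0.52 below a median of 0.29. What part chromosome dosage or any other regional difference had in these ratios was not tested.

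**Figure D5:**
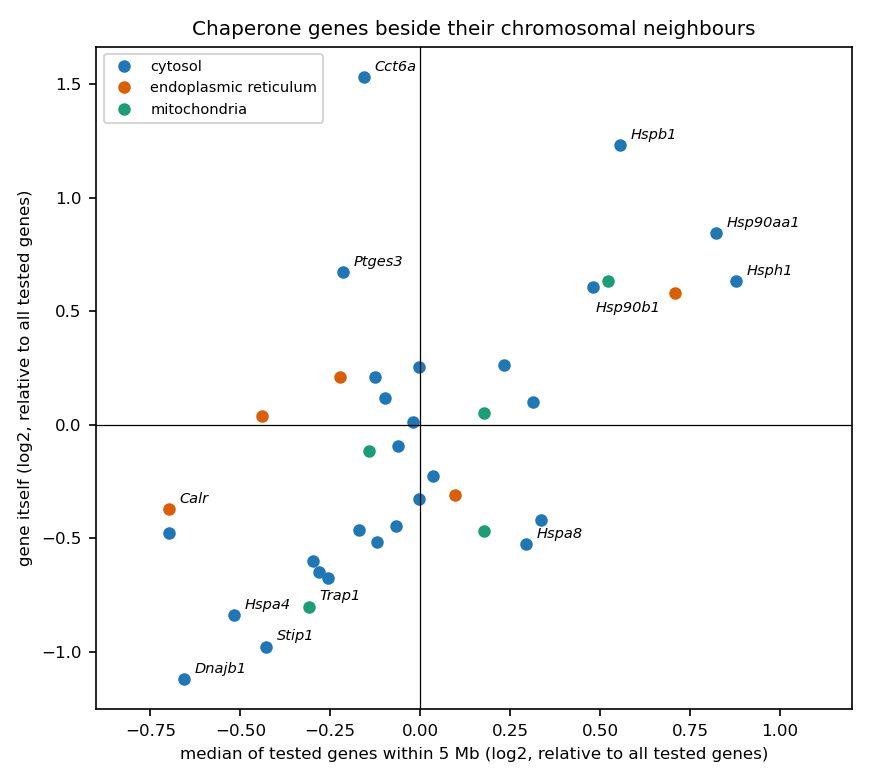
Relative log2 ratio of each of the 37 genes (vertical axis) against the median of tested genes within 5 Mb (horizontal axis), both relative to all tested genes, coloured by compartment. Hsp90aa1 at 0.85 lies level with its neighbours at 0.82, and Cct6a at 1.53 lies far above its own at -0.16.

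Other genes of the folding machinery gave the setting. Of 180 further chaperone and folding genes, 131 were tested, with a median log2 ratio of -0.50, and 73 had an interval below 0 and 13 above, beside 45% and 19.2% of all tested genes. Among 28 other cochaperones of HSP90 and HSP70 the median was -0.63, with a range from -1.46 to 0.93. Bag4 at -1.15 and Fkbp8 at -0.95 had the intervals farthest below 0, and Bag5, another BAG-domain gene, was highest. Among 16 genes of prefoldin, which hands clients to CCT, and of other CCT partners, the median was -0.16, with 4 at least 2-fold higher and none at least 2-fold lower in PD800, beside 9.22% and 16.9%. Pfdn4 had 53 and 264 UMIs and a ratio of 1.82, and Pfdn1 had 509 and 1514 and a ratio of 1.07, while Uri1 and Pdcl3 were lowest at -0.96 and -0.76. Pfdn4 shares none of the repeated words of Cct6a.

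Most unfolded protein response genes had an interval below 0, and so did most reticulum folding genes while the endoderm-like cells were included. Of 13 tested response genes 11 had an interval below 0 and 0 above, beside 45% and 19.2%, with a median of -1.11. Ddit4, a stress-induced inhibitor of growth signalling, had 77 and 19 UMIs and a ratio of -2.52, and Herpud1, which acts in reticulum-associated degradation, had 46 and 16 and a ratio of -2.02. Sel1l, a subunit of the reticulum degradation complex, had the highest ratio at 0.65, with 18 and 40 UMIs and an interval from -0.18 to 1.54, and Asns, the asparagine synthetase induced by Atf4, was at -0.20 with 449 and 554 UMIs. Of 25 reticulum folding genes 16 had an interval below 0 and 1 above, beside 45% and 19.2%. The 1 above was P4hb, a disulfide isomerase, at 0.12 with 1072 and 1652 UMIs. Serpinh1 was lowest at -2.38, with 295 and 80 UMIs. Without the endoderm-like cells it had 64 and 80 UMIs, 36.8 and 31.0 CPM, and a ratio of -0.25 whose interval (-0.74 to 0.25) included 0. Without them 11 of the 25 reticulum folding genes had an interval below 0, near the 45% of all tested genes with those cells kept. Their median was then -0.41, against -0.32 over all tested genes. Of 12 response genes 9 still had an interval below 0, with a median of -0.97. Of 25 mitochondrial import, folding and protease genes 13 had an interval below 0 and 2 above, beside 45% and 19.2%. Tomm20, an import receptor, had 2604 and 836 UMIs and a ratio of -2.14, Timm44, which tethers the mitochondrial HSP70 to the import channel, had 213 and 67 and a ratio of -2.17, and Timm8a1 was highest at 1.51.

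A further list of heat shock factors and regulators other than Hsf1 also held cold-inducible genes. Of its 4 tested genes 3 had an interval above 0, beside 19.2% of all tested genes. Hsf2bp, which binds HSF2, had 64 and 196 UMIs and a ratio of 1.12 (0.70 to 1.55). The cold-inducible RNA-binding genes Rbm3 and Cirbp were at 0.63 (0.46 to 0.81) and 0.39 (0.10 to 0.68). Hsbp1, which binds HSF1 trimers, had 644 and 897 UMIs and a ratio of -0.02 with an interval that included 0. Of 39 other J-domain genes, 22 were tested with a median of -0.26, from Dnajc3 at -1.71 and Dnajc5 at -1.39 to Dnajb14 at 2.91. Of 7 other HSP70 and HSP110 genes only Hyou1, the exchange factor of BiP, was tested, with 40 UMIs in each library and a ratio of -0.50 (-1.17 to 0.17).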

How the data were processed

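The authors made droplet (inDrops) single-cell RNA libraries of Terc-/- mESCs at PD100 and PD800 and deposited 1 table of raw UMI counts per library, with a row per barcode and a column per gene symbol. They quantified UMIs with the inDrops pipeline at its default settings against a transcriptome built from GRCm38/mm10, and analysed the counts in Scanpy. The aligner inside that pipeline is not given in the sources used here. Counts were read as deposited, and 0 columns belonged to other series. Cells with at least 1000 UMIs and at most 20% mitochondrially encoded UMIs were kept, doublets were called with Scrublet (14 in PD100, 8 in PD800, kept), and UMIs were summed per library and divided by the total (CPM).

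With 1 library per group no test was possible and there is no spread between replicates. Levels carry exact Poisson intervals, shares exact binomial (Clopper-Pearson) intervals and ratios the matching conditional interval, all at 95% and for counting error only. UMI depth was 1826233 and 2580963. Genes were compared from 50 UMIs upwards, summed over PD100 and PD800, a 0 was set to a floor of 3 counts for a ratio, and medians of other lists are over their tested genes. Clusters used 15844 variable genes without the 39, 80 components, 15 neighbours and Louvain at resolution 1 (Scanpy 1.11.5, python-igraph 0.11.9, SciPy 1.17.1). Thinning used a fixed seed. The ratio step was tested on simulated counts. Genes named from other lists are among the 2 highest and 2 lowest of each list, ranked by the end of the interval nearer to 0 on the log2 scale; genes named for repeated words, and the cells left out of other lists, were chosen after their values were seen. The listed genes and other lists were chosen with earlier results of these data known. Alternatives changed the scaling, cell filter, doublets, depth and clusters included. Hspa9 has no printed sequence.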

Additional observations from a re-analysis of the deposited data

Results flagged for a closer look

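The barcodes that the cell filter left out, 477 in PD100 and 766 in PD800, entered no comparison above, and 5 of the listed genes were higher in the PD800 barcodes among them beyond counting error. Cct6a had 110 UMIs in PD100 and 514 in PD800 there, a log2 ratio of 1.33 (1.03 to 1.64) beside 1.19 in the kept cells. Hspb1 had 189 and 561, a ratio of 0.68 (0.44 to 0.92) beside 0.89. Hspa9 had 69 and 207, a ratio of 0.69 (0.29 to 1.11) beside 0.29, and Hsp90b1 had 79 and 230, a ratio of 0.65 (0.27 to 1.04) beside 0.24. Hsp90aa1 had 676 and 1538, a ratio of 0.29 (0.16 to 0.43) beside 0.50. The interval lay above 0 for 5 and below 0 for 15 of the 36 listed genes with at least 50 UMIs there, beside 22.1% and 32.9% of all 2268 such genes. Of the 36, 27 had the same sign as in the kept cells, with a median of -0.11. The 219 genes that share the repeated words of Cct6a in sense had a median of 1.81 there, and the 1897 genes without them -0.27. The limit of 50 UMIs over both libraries applied here too, so sparse genes could pass through PD800 alone. The cause was not tested.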

How the results depend on the processing

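The scaling decided the direction of the weaker values. With median-of-ratios scaling, which sets the median of all tested genes near 0, the median of the listed genes was -0.11, that of reticulum genes turned to 0.039, and the counts at 1.5-fold were 7 higher and 7 lower. Under it 9 of the 37 ratios changed sign, among them Hspe1 (0.051), Dnajc2 (0.011), Cct8 (0.10) and Canx (0.039), whose plain interval lay below 0. The ratio of Hspa1b, whose interval included 0, turned to 0.44 when cells were thinned to 1000 UMIs, where PD800 held 0 UMIs and the floor of 3 counts was used. The share of Hsp90aa1 in PD800 was 73.6% after thinning, the share of Hspd1 in PD100 was 54.4% with at least 2000 UMIs per cell, and the share of Cct6a in PD800 was 28.3% with no cell filter and 28.1% after thinning. Without thinning, the median share of cells was 42.1% in PD100 and 48.8% in PD800 and the variance over the mean 1.89 and 1.74. At 2000 UMIs per cell, with 465 and 651 cells, they were 44.5% and 43.0%, in the opposite order, and 1.57 and 1.32, and with another seed the PD100 share was 26.7%. The variance over the mean stayed higher in PD100 for 25 to 30 of the 33 genes. Widening the window to 10 Mb moved the neighbour median of Cct6a to 0.13. The other windows and leaving out barcode names found in both tables were chosen after seeing the data. Over 312 single-gene values under these alternatives, 14 changed sign, in 10 genes. Dnajb11 changed sign after thinning (0.22) and without the endoderm-like cells (0.10). No paired analysis was possible because each group has 1 library. Depth limits Hspa1a, Hspa1b and Hsf1, and 1 library per time point limits every comparison.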
